A study of Mus musculus with 2116 samples.

Results

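Effector-like regulatory T cells of the mouse spleen were taken here as the cells of the Treg library that held at least 3 UMIs of 12 effector-associated genes per 1000 UMIs of the cell. A UMI, or unique molecular identifier, marks 1 captured mRNA molecule. The 12 rule genes were S100a4, S100a6, S100a10, S100a11, Lgals1, Itgb1, Ahnak, Crip1, Vim, Anxa2, Cd44 and Icos. Cells with under 1000 UMIs, or with any UMI of the B cell gene Cd79a or the macrophage genes Lyz1 and C1qa, were left out first, which kept 719 of the 816 Treg cells. Of these, 227 reached the threshold and are called members here, and the other 492 served as the comparison; the whole series holds 2116 cells. All animals were male B6 Foxp3-Ires-Gfp mice aged 8 months, in which green fluorescent protein is made from the Foxp3 transcript, and no treatment is named. The Treg and Tconv (conventional CD4+ T cell) groups were each 1 library of live TCRb+ CD4+ splenocytes captured in inDrops droplets, and the number of animals is not given in the sources used here. The sort protocol names GFP+ cells for both groups. With 1 library per group no difference could be tested. All intervals are exact 95% intervals and cover counting error only.

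Regulatory T cells restrain immune responses and are defined by the transcription factor Foxp3. Resting, or central, regulatory T cells circulate through lymphoid organs with the help of the chemokine receptor Ccr7. Effector regulatory T cells have responded to antigen. They carry the adhesion and activation receptors CD44 and ICOS, adopt transcription factors and chemokine receptors of effector helper cells, and many of them move to non-lymphoid tissue. S100 proteins, annexin A2 and Ahnak are calcium-dependent or membrane-associated scaffolds of the cell cortex, and their transcripts are abundant in antigen-experienced T cells.

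The members held 452767 UMIs and the other Treg cells 920336. A median member had 1839 UMIs and a median other cell 1738. Thinned to 1000 UMIs, the medians were 545 and 512.5 detected genes per cell, so members held somewhat more kinds of transcript at equal depth. Mapped reads per UMI were alike, with medians of 31.5 and 31.4. At least 3 UMIs of a list of another cell type were held by 14 members (6.17%, interval 3.41 to 10.1) and 40 other cells (8.13%, 5.87 to 10.9). For the myeloid list these were 8 members and 6 other cells, for the plasmacytoid dendritic list 8 and 19, for the B cell list 2 and 2, for the plasma cell list 2 and 7, and for the CD8 or NK list 0 and 3. The summed UMIs gave another picture for some lists. The B cell list had 76 UMIs in members and 26 in other cells, a log2 ratio of 2.57 (1.91 to 3.27), the myeloid list 94 and 89, 1.10 (0.67 to 1.54), and the plasmacytoid dendritic list 203 and 211, 0.97 (0.68 to 1.25). Their part in the results was not tested. No UMI in any member was found for 4 of 9 B cell genes, 5 of 11 myeloid, 1 of 4 plasma cell and 3 of 8 CD8 or NK genes. Those at 0 included Ms4a1, Ebf1, Csf1r, C1qc, Cd5l, Jchain and Ncr1, and, by the filter, Cd79a, Lyz1 and C1qa. The rest of each of these lists had UMIs in members. A pair of members stood apart: these 2 cells held 60 and 70 UMIs of the plasmacytoid dendritic list and no UMI of Foxp3, Cd3d, Cd3e or Cd3g. Without them the B cell list stood at 1.39 (0.60 to 2.19), the myeloid list at 0.50 (0.01 to 0.99) and the plasmacytoid dendritic list at -0.49 (-0.89 to -0.10). They met the rule and were kept, and the genes they moved most are given with and without them. Of the cell barcodes, 12 occurred in both libraries, and 4 of the members had such a barcode.

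The rule cut a continuous score. The lowest member had 3.03 rule-gene UMIs per 1000, the highest nonmember 2.9985, and no gap separated them. A median member had 4.99 per 1000 and the highest 36.6, whereas the other cells had a median of 1.14. The count behind a call was small: a median member held 10 rule-gene UMIs from 4 of the 12 genes, and a median other cell 2 UMIs from 1 gene. Within 0.5 of the threshold lay 48 cells below it, with a median of 5 rule-gene UMIs, and 33 members above it, with a median of 6. The class is therefore a range of a score, not a set of cells apart. When every cell was first thinned to 1000 UMIs, 276 cells (38.4%) reached the threshold, 207 of the 227 members among them.

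**Figure D1:**
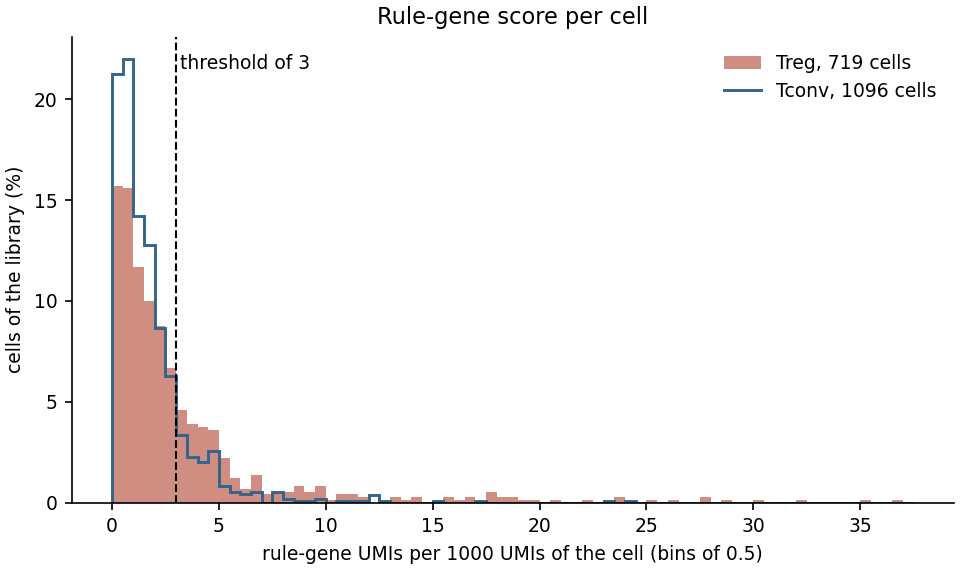
Share of cells of each library (y, percent) by rule-gene UMIs per 1000 UMIs of the cell (x, bins of 0.5), for 719 Treg cells (filled) and 1096 Tconv cells (line). Both distributions fall smoothly across the threshold of 3 (dashed), and the Treg library has the longer tail, to 36.6 per 1000.

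The rule genes chose the members, so their values are a description. The calcium-binding protein S100a6 had 680 UMIs in members and 24 in the other cells, or 1502 against 26.1 CPM, UMIs scaled to a total of 1000000 per class. Its neighbour S100a4, of the same family, had 273 against 7. Itgb1, the integrin beta-1 chain that binds matrix and VCAM-1, stood at 1003 against 48.9 CPM. These sums came from a part of the members: S100a6 was seen in 79 of 227, Itgb1 in 82, S100a4 in 57, and 88 members (38.8%) had no UMI of any of the 3. Both S100a6 and S100a4 were seen in 41 members. The LIM-domain protein Crip1 and the annexin A2 partner S100a10 were the common entries into the class: without Crip1, 64 members would have missed the threshold, and without S100a10, 49. Without S100a4 or Anxa2 only 5 and 2 would have done so. Icos, the costimulatory receptor, had 415 against 53.2 CPM, Ahnak 488 against 66.3 and Cd44, the hyaluronan receptor, 186 against 26.1.

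To keep a gene out of its own comparison, a further description classed the cells by the other 11 genes. On that basis S100a4 was still the gene with the largest log2 ratio, 5.03 (4.32 to 5.83), ahead of S100a6 at 4.32 (3.96 to 4.69) and S100a11 at 2.74. Icos stood at 2.06, Itgb1 at 1.99, Lgals1 (galectin-1) at 1.93 and Ahnak at 1.80. Cd44 had the smallest, 0.71 (0.13 to 1.29), with Vim (vimentin) at 0.85 and Crip1 at 0.96. Each of the 12 genes was higher in cells chosen by the others, which describes the rule genes and was no test of the class. By the rule's own genes, 54 members and 1 other cell held 6 or more of the 12, and 92 members held 3 or fewer.

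**Figure D2:**
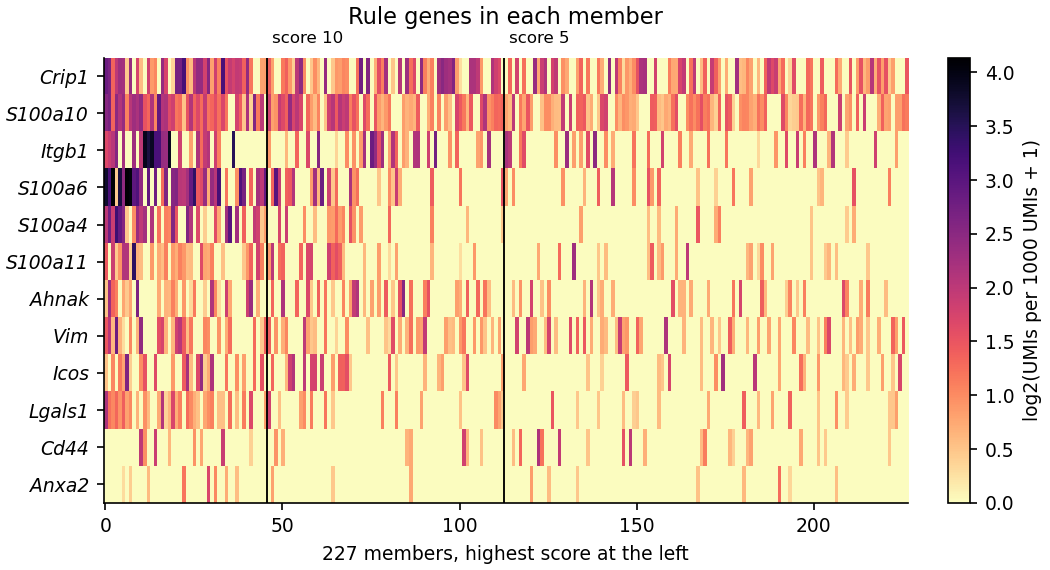
Rule-gene UMIs per 1000 UMIs (color, log2 of the value plus 1) in the 227 members (x, highest score at the left) for the 12 rule genes (y). S100a6, S100a4 and Lgals1 are concentrated at the left, in cells with a score of 10 or more, whereas Crip1 and S100a10 are spread over all members.

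Of the rule genes 4 are S100 genes of chromosome 3 (GRCm38), where the annotation places 14 S100 genes. S100a4 (chr3:90603771-90606045, plus strand) and S100a6 (chr3:90612882-90624181, plus strand) lie 6836 bases apart, with S100a5 between them. S100a11 (chr3:93520488-93526287) and S100a10 (chr3:93555080-93564643) lie farther along the chromosome. Only 1 more of the 14 genes reached 30 UMIs, S100a13, with 42 UMIs in members and 47 in other cells, a log2 ratio of 0.86 (0.23 to 1.49). S100a5, between S100a4 and S100a6, and the neutrophil genes S100a8 and S100a9 had no UMI in the 719 cells.

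The 250 bases before the RefSeq start of 4 of these genes are shown because S100a4, S100a6 and S100a11 head the description above and Anxa2 is the binding partner of S100a10; they are RefSeq sequences of GRCm38.p6. For S100a6, S100a11 and Anxa2 the RefSeq start lies inside the gene span of the annotation used for positions, so the end of those windows falls within it. Capitals mark matches on either strand to a pair of motifs. The AP-1 motif searched was TGANTCA. The TATA box searched was TATAAA. Among 32851 mouse promoters of the same length 6.75% held the first and 12.4% the second. Of the 9 rule genes matched in the table, Anxa2 and S100a11 held the AP-1 letters, and Anxa2, S100a4 and Vim held TATAAA. A match describes the letters and is no evidence of binding. The windows are chr3:90603520-90603769, chr3:90612644-90612893, chr3:93520246-93520495 and chr9:69453433-69453682, all on the plus strand.
S100a4: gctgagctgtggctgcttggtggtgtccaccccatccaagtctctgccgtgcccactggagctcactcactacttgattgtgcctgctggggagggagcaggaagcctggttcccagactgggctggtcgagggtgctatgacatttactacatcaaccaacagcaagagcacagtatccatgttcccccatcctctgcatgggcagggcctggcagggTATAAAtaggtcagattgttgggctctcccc
S100a6: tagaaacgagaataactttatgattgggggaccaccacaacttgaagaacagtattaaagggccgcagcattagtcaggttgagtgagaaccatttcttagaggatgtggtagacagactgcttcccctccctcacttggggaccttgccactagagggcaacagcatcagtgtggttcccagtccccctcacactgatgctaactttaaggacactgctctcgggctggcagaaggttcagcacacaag
S100a11: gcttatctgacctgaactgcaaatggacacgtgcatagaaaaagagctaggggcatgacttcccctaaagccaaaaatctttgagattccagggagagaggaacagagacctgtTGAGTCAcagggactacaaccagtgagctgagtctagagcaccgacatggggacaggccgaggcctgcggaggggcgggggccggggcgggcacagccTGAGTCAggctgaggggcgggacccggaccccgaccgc
Anxa2: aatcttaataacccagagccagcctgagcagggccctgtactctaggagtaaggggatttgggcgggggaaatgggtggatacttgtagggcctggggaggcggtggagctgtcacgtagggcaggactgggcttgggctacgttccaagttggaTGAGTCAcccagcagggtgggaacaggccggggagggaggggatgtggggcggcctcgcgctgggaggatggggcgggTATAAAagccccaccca

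The members carried Foxp3 at the level of the other Treg cells. Foxp3 had 168 UMIs in members and 368 in the others, 371 against 400 CPM (399.9), a log2 ratio of -0.11 (-0.38 to 0.16). With cells thinned to 1000 UMIs, a Foxp3 UMI was seen in 27.3% of members (21.6 to 33.6) and 27.2% of the others (23.3 to 31.4). Unthinned, the shares were 39.6% and 39.2%. In Tconv cells above the same threshold 1 of 162 held a Foxp3 UMI at 1000 UMIs (0.617%, 0.0156 to 3.39). At least 1 UMI of a 25-gene Treg signature was found in 95.2% of members (91.5 to 97.6) and 85.6% of the others (82.1 to 88.6) at 1000 UMIs, and the medians were 5 and 4 signature UMIs.

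Effector genes outside the rule were higher in members. Of the 27 genes of this list 14 reached 30 UMIs, and of these 7 were at least 2-fold higher in members (background 5.69% of 5763 measured genes) and 1 at least 2-fold lower (background 4.62%). Their median log2 ratio was 1.14, against 0.07 over all measured genes, and that of their summed UMIs 0.82 (0.69 to 0.94). The genes at least 2-fold higher were the chemokine receptors Ccr2 and Cxcr3, the integrin Itgae, the transcriptional regulators Maf and Id2, the inhibitory receptor Ctla4 and the secreted inhibitor Fgl2. Of these, Ccr2, Cxcr3, Itgae and Fgl2 held 2, 5, 11 and 9 UMIs in the other cells. They reached the minimum of 30 UMIs through the members, so the count of 7 and the median are partly set by that minimum.

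Ccr2, which guides cells to inflamed tissue, had 38 UMIs in 17 members and 2 UMIs in 2 other cells, a log2 ratio of 5.27 (3.32 to 8.37), but 1 member held 11 of the 38. Cxcr3, the receptor of interferon-induced chemokines, had 29 UMIs in 19 members and 5 in 4 other cells, a ratio of 3.56 (2.17 to 5.29). Maf, a transcription factor of interleukin 10-producing and follicular T cells, stood at 163 against 30.4 CPM, a log2 ratio of 2.43 (1.78 to 3.11). It was seen in 35 members and 13 other cells. Itgae, the CD103 integrin that binds E-cadherin on epithelium, was at 68.5 against 11.95 CPM, 2.52 (1.49 to 3.66), and Id2, an inhibitor of E proteins in effector cells, at 1.96 (1.18 to 2.77). Ctla4, which removes the ligands of CD28 from antigen-presenting cells, had 203 against 69.5 CPM, 1.55 (1.07 to 2.03). All 6 of these genes were seen in minorities of the members, from 17 cells for Ccr2 to 52 for Ctla4.

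Other effector genes did not stand out. The TNF receptor family member Tnfrsf9 (4-1BB) was at 0.74 (0.35 to 1.12), Tnfrsf18 (GITR) at 0.36 (0.07 to 0.64) and Tnfrsf4 (OX40) at 0.28 (-0.02 to 0.59). Gata3, the Th2 factor also used by tissue regulatory T cells, was at 0.09 (-0.25 to 0.43) and Batf at 0.70 (-0.14 to 1.52). Irf4, a factor induced by T cell receptor signals, was lower in members, with 4 UMIs against 30 and a ratio of -1.88 (-3.85 to -0.38); 9 other cells held those 30 UMIs. Granzyme B (Gzmb) was seen in 4 members and 4 other cells. The 13 genes under 30 UMIs included Klrg1, with 13 UMIs in 7 members and 4 in 1 other cell, Prdm1 (Blimp-1), with 9 against 4, Pdcd1 (PD-1), with 14 against 12, and Il10, with 1 UMI in each class. These 13 genes had too few UMIs to compare.

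Most resting T genes had lower values in members. Of 21 genes 20 reached 30 UMIs; 12 had an interval wholly below 0 (background 8.87% of measured genes) and 1 wholly above 0 (background 14.5%). The median log2 ratio was -0.45 and that of the summed UMIs -0.31 (-0.39 to -0.24). At least 2-fold lower were Dapl1, with 3 UMIs against 33, and the transcription factors of quiescent and naive cells Lef1, at -1.26 (-2.20 to -0.41), and Bach2, at -1.21 (-1.86 to -0.62), with the PI3K inhibitor Pik3ip1 at -1.19 (-2.14 to -0.34). The chromatin organiser Satb1 stood at -0.67 (-0.94 to -0.40) and Ccr7 at 190 (189.9) against 252 CPM, -0.41 (-0.78 to -0.05). The difference in this lymph node homing receptor was thus under 2-fold, and 57 members held a Ccr7 UMI. Tcf7, Foxp1 and Foxo1, further factors of resting T cells, lay between -0.16 and -0.05, with intervals that reached both sides of 0. The 1 gene with an interval wholly above 0 was Il7r, the interleukin 7 receptor, with 133 against 52.2 CPM, 1.35 (0.77 to 1.92). Txnip was the other gene with a ratio above 0, at 0.07 (-0.13 to 0.26).

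Genes of the Treg signature differed among themselves. Of 25 genes 22 reached 30 UMIs, 6 of them at least 2-fold higher in members (5.69% of all measured genes) and 0 at least 2-fold lower (4.62%), with a median log2 ratio of 0.32. The signature shares Ctla4, Tnfrsf4, Tnfrsf9 and Tnfrsf18 with the effector list. Nrp1 (neuropilin-1), a semaphorin co-receptor of thymus-derived regulatory T cells, stood at 265 against 102 CPM, 1.38 (0.97 to 1.78). Tnfrsf1b (TNF receptor 2), which supports regulatory T cell expansion, was at 1.32 (0.90 to 1.75), the actin-capping protein Capg at 1.13 (0.73 to 1.54) and Ikzf2, which encodes Helios, at 563 against 277 CPM, 1.02 (0.77 to 1.28). Penk was high too, but in only 3 cells of each class. The interleukin 2 receptor did not share this: Il2rb, the beta chain, was at 0.04 (-0.21 to 0.29) and Il2ra, the high-affinity alpha chain CD25, was slightly lower in members, with 371 against 459 CPM, -0.31 (-0.57 to -0.04). Its sign turned when the threshold was 2 per 1000 or when cells were classed after thinning, to 0.050 and 0.10. Coro2a, a coronin of the cytoskeleton, was at -0.61 (-1.14 to -0.09) and Gpr83, an orphan receptor of regulatory T cells, at -0.47 (-0.95 to 0.00). Lrrc32 (GARP), which displays latent TGF-beta, was at 0.06 (-0.53 to 0.63).

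The 13 measured genes of the interleukin 2 receptor and STAT5 list had a median of -0.24, with 3 intervals below 0 (8.87% of all measured genes) and 0 above (14.5%). These included Cish, a STAT5-induced suppressor of cytokine signalling, at -0.67 (-1.25 to -0.13) and Stat5b at -0.55 (-1.0004 to -0.12). Among suppression mediators 5 of 15 reached 30 UMIs, and Fgl2 was the highest, with 21 UMIs in 13 members and 9 in 3 other cells, 2.25 (1.06 to 3.56). Nt5e (CD73), which makes adenosine, was at 0.53 (-0.17 to 1.22).

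**Figure D3:**
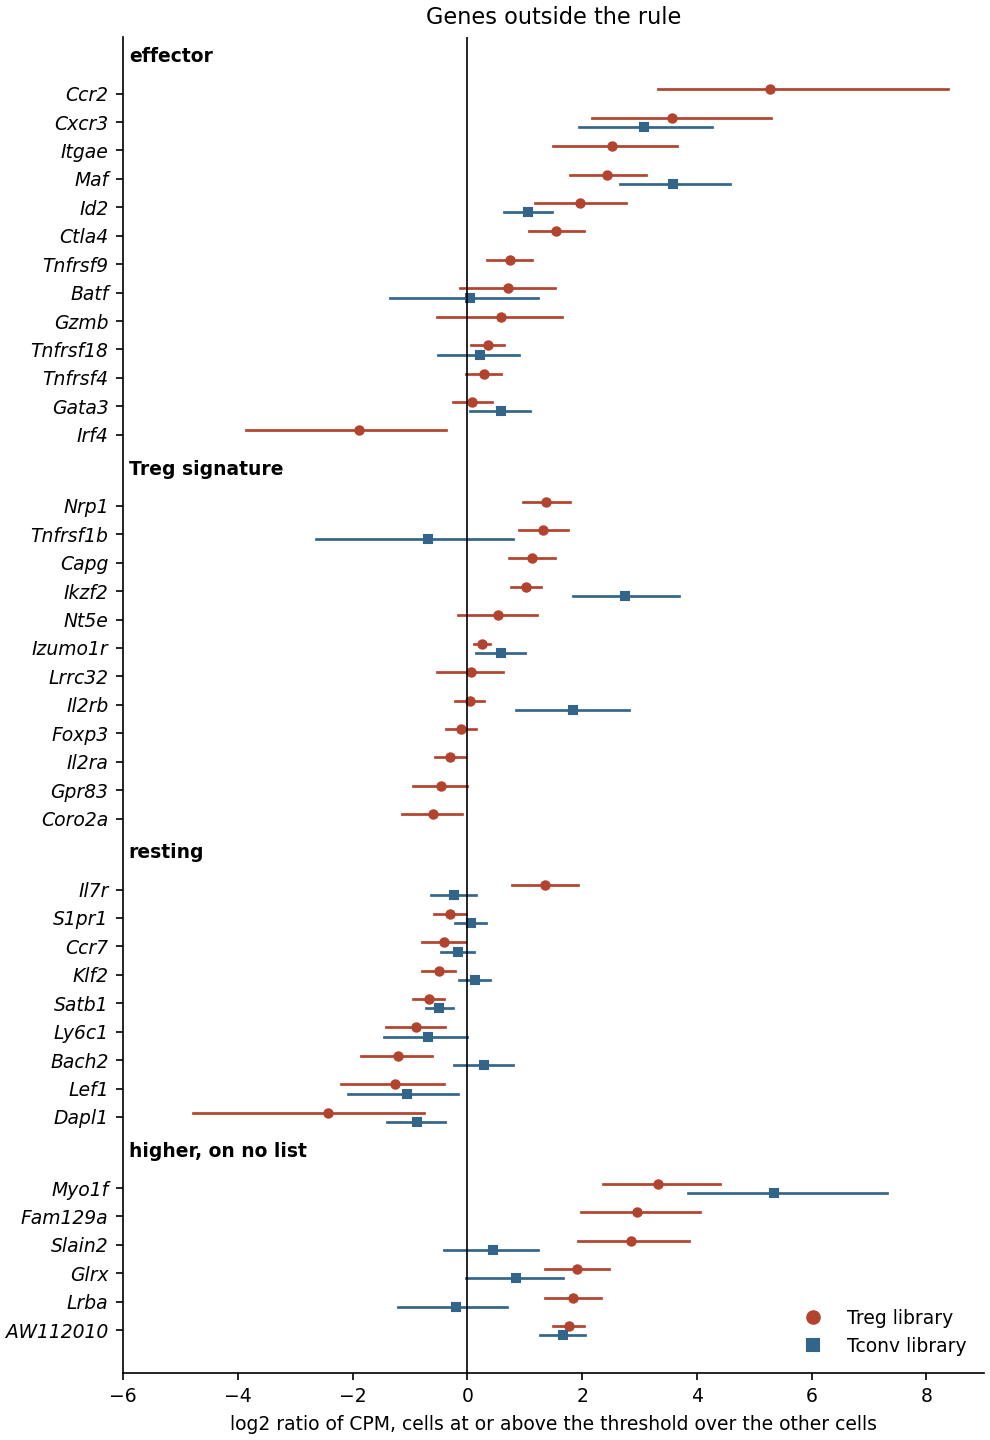
Log2 ratio of CPM in cells at or above the threshold over the other cells of the same library (x) for genes outside the rule (y), with exact 95% intervals, in the Treg library (circles) and, where a gene reached 30 UMIs, the Tconv library (squares). Ccr2, Cxcr3 and Maf lie far to the right, Foxp3 and Il2rb lie at 0 in Treg, and the resting genes lie to the left except Il7r.

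Adhesion genes beyond Itgb1 were higher in part. Of 14 further integrin genes 7 reached 30 UMIs, 4 with an interval above 0 (14.5% of all measured genes). Itga4, the alpha-4 chain that pairs with Itgb1 and Itgb7, stood at 296 against 162 CPM, 0.87 (0.52 to 1.22), Itgb7 at 0.65 (0.30 to 1.0003) and Itgal, the alpha chain of LFA-1, at 0.62 (0.33 to 0.92). Itgb2, the beta chain of LFA-1, was at -0.20 (-0.43 to 0.02), so the chains of that pair were not alike. Of the homing receptors Cxcr5, which leads into B cell follicles, was at 1.36 (0.43 to 2.31), and Ccr6, under 30 UMIs, had 12 UMIs in 7 members and 3 in 3 other cells. Cytoskeletal and annexin genes outside the rule were mildly higher, with a median of 0.26 over 28 measured genes, against 0.07 over all genes, and 16 intervals above 0 (14.5% of all measured genes): the focal adhesion protein Zyx (zyxin) was at 0.92 (0.47 to 1.37), Anxa6 (annexin A6) at 0.57 (0.36 to 0.78) and Actg1 (gamma actin) at 0.47 (0.37 to 0.56).

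Among the 15 genes outside the rule that were highest in members by the nearer bound of their interval, out of 5763, were Myo1f, Cxcr3, Fam129a, Slain2, Atxn1, Tgif2, Maf, Ppapdc2, AW112010, Itgae, Glrx, Lrba, Sh3bgrl and Wbp5. A filter asked for UMIs in at least 10 cells and at most 20% of them in 1 cell. Plac8 and Ccr2 had higher nearer bounds, 3.37 and 3.32, but did not pass it. Such extremes are chosen for their size, which is therefore no estimate for new cells. Myo1f, an unconventional myosin of hematopoietic cells that acts in adhesion and migration, stood first of the 15. It had 54 UMIs in 27 members and 11 in 6 other cells, 3.32 (2.37 to 4.40). Without the 2 members that stood apart it was at 3.17. AW112010, a transcript of activated lymphocytes annotated as a long noncoding RNA (chr19:11047612-11055808, minus strand), had the most UMIs of the 15, 306 against 183, 1.77 (1.496 to 2.04), in 108 members and 124 other cells. Lrba, the LPS-responsive protein that protects CTLA-4 from lysosomal degradation, was at 221 against 61.9 CPM, 1.83 (1.35 to 2.33). Glrx (glutaredoxin), a thiol reductase, was at 1.90 (1.36 to 2.47).

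The 15 lowest were Otud1, Fam220a, 2410016O06Rik, Topors, Kat2b, Hsf1, Prpf38a, Wdr11, Lsm14b, Tsnax, Ugcg, Oat, Pmf1, Phf12 and Dnmt3a. Otud1, a deubiquitinase, had 0 UMIs in members and 31 in 16 other cells and was at least 5.08-fold lower, against a floor of 3 counts over the class. For 8 others the members held 1 to 4 UMIs, so their ratios are loose: Fam220a, whose annotation holds overlapping genes, was at -4.44 (-9.77 to -1.88), and Hsf1, the heat shock factor, at -3.83 (-9.19 to -1.24). The better counted of the 15 were Tsnax, with 24 UMIs against 164, -1.75 (-2.43 to -1.13), the ceramide glucosyltransferase Ugcg, with 13 against 103, -1.96 (-2.92 to -1.13), and the de novo DNA methyltransferase Dnmt3a, with 9 against 72, -1.98 (-3.16 to -0.97). Kat2b, a histone acetyltransferase, and Pmf1 turned sign when cells were classed after thinning, to 0.36 and 0.08.

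The pair of members that stood apart decided several values. Irf8, a factor of plasmacytoid dendritic cells, was at 1.88 with them and 0.25 (-0.77 to 1.22) without. Bst2 was at 1.68 with them and 0.37 (-0.38 to 1.10) without. Of the 55 UMIs of Plac8 in members these 2 cells held 41. Cd74, the invariant chain of B and dendritic cells, was at 1.63 with them and 1.05 (0.10 to 1.99) without. Of the 38 Ccr2 UMIs they held 2, and Ccr2 was at 5.22 without them. Of the 23 Sh3bgrl UMIs they held 3, and Sh3bgrl was at 2.37 without them. For Maf, Cxcr3, Itgae, Ctla4, Il7r and Tnfrsf1b these cells held no UMI.

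Ribosomal protein genes were lower in members as a block. They took 22.5% of the UMIs of members and 27.6% of those of the other cells. The median log2 ratio was -0.30 over 82 measured genes. Of the 82 intervals 72 lay below 0 (8.87% of all measured genes), though 0 genes were 2-fold lower (4.62%). Transcripts this abundant weigh on the scale of all other genes. Scaling to the UMIs of non-ribosomal genes shifted every log2 ratio by -0.10, and TMM scaling by -0.13. The 328 genes at least 2-fold higher and 266 lower became 247 and 339 with non-ribosomal scaling and 227 and 359 with TMM scaling. The medians of the T lineage, oxidative phosphorylation, proliferation and heat shock lists, between 0.02 and 0.09, turned negative under both.

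Genes of T cell receptor response and of immediate early transcription differed among themselves. Over the 10 measured genes of TCR response the median was -0.11: the nuclear receptor Nr4a1 was at -1.44 (-2.35 to -0.64) and the transcription factor Myc at -0.84 (-1.28 to -0.43), whereas the activation marker Cd69 was at 0.86 (0.33 to 1.39) and Nfatc1 at 0.72 (0.30 to 1.15). Nr4a1 was seen in 3.52% of members and 4.27% of other cells, and 1 other cell held 19 of its 83 UMIs there. For Myc the shares of cells were 5.29% and 7.93%, for Cd69 9.25% and 6.30%, and for Nfatc1 17.6% and 10.4%. Of the AP-1 and immediate early genes 8 of 14 were measured, with a median of 0.34, and 4 intervals lay above 0 (14.5% of all measured genes) and 0 below (8.87%); Ier5 was at 0.73 (0.40 to 1.06) and Jund at 0.28 (0.06 to 0.50). For Zfp36 and Klf6 of this list, at 0.41 and 0.49, the sign turned under another threshold. Over 17 measured genes of TNF receptors and NF-kB the median was 0.23. Their intervals lay above 0 for 4 (14.5% of all measured genes), such as Tnfrsf1b and Tnfrsf9, and below for 2 (8.87%). The 2 below are near the share over all genes. They were Relb, at -1.26 (-2.57 to -0.14), and Rela, the p65 subunit of NF-kB, at -0.94 (-1.77 to -0.17). Glycolysis genes had a median of 0.31. The glucose transporter Slc2a3 was the 1 gene of 11 at least 2-fold lower (4.62% of all measured genes), at -1.13 (-1.82 to -0.49). It was seen in similar shares of cells, 7.93% of members and 8.13% of the others. The class I presentation genes had a median of 0.19, led by the peptide transporter Tap1 at 0.66 (0.37 to 0.94). Of the BCL2 family, the death inducer Bcl2l11 (Bim) was at -1.10 (-2.05 to -0.25) and the survival genes Bcl2a1b and Bcl2a1d at 0.67 (0.24 to 1.10) and 0.66 (0.04 to 1.27). The proliferation genes Mki67, Top2a and Cdk1 had under 30 UMIs.

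**Figure D4:**
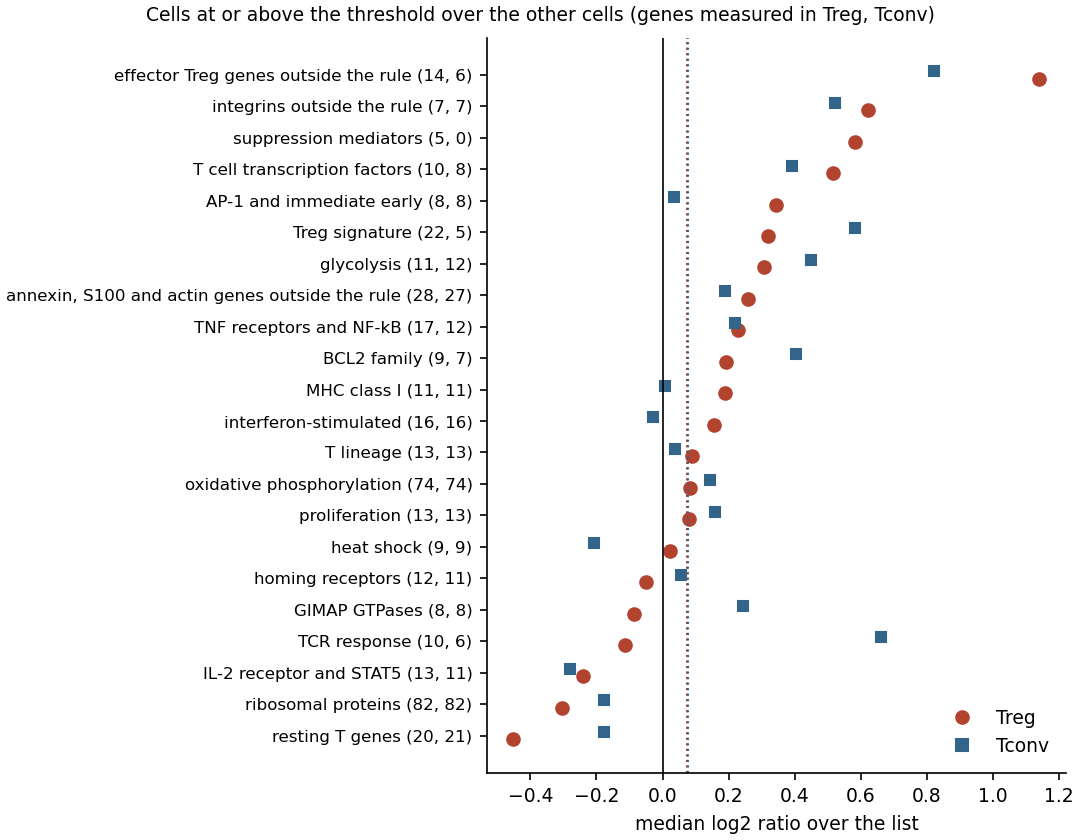
Median log2 ratio of each list of at least 5 measured genes other than the rule genes (x), in cells at or above the threshold over the other cells, in Treg (circles) and Tconv (squares), with the number of genes measured in each; dotted lines mark the medians of all genes, 0.07 and 0.08. Of these the effector list lies highest at 1.14 and the resting list lowest at -0.45 in Treg.

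Effector and resting genes differed within the class as well as across the threshold. The effector Treg genes outside the rule stood at 1263 CPM (1156 to 1377) in the 225 cells with a score under 1, at 1613 in the 114 members with a score of 3 to under 5, at 2496 in the 67 with 5 to under 10 and at 3003 (2682 to 3353) in the 46 with 10 or more. The resting T genes stood at 5268, 4999.6, 4302 and 3487 (3139 to 3862) CPM in the same cells, and ribosomal proteins at 274608, 245515, 220844 and 187475. The Treg signature was highest in the middle of the class, with 4747, 5768, 6870 (6417 to 7346) and 5448 CPM. Foxp3 showed no such order, with 395 CPM (336 to 462) in the lowest cells and 294 (199.6 to 417) in the highest, with overlapping intervals. These bins share 1 library, and the deepest cells were those with a score of 10 or more, with a median of 2141 UMIs against 1623 in the lowest.

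The genes differed in how far they were gathered in the 46 members with a score of 10 or more. These were 20.3% of the members and held 13 of the 17 members with a Ccr2 UMI, 10 of the 18 with Itgae and 16 of the 35 with Maf. They held 17 of the 45 members with Nrp1, 17 of the 52 with Ctla4, 6 of the 19 with Cxcr3, 11 of the 27 with Myo1f and 11 of the 42 with Tnfrsf1b. They held 7 of the 57 members with Ccr7, 19 of the 90 with Foxp3 and 22 of the 89 with Ikzf2. Satb1 stood at 56.8 CPM (20.9 to 124) in them, against 556 (486 to 634) in the cells with a score under 1. Ccr2 stood at 322 CPM (223 to 450.2) in them and at 0 in the members with a score of 3 to under 5. Ctla4 differed less abruptly, with 130 CPM (130.3) at 3 to under 5, 241 at 5 to under 10 and 313 at 10 or more. Of the 17 members with Ccr2, 6 also held an Itgae UMI, 6 a Maf UMI and 2 a Ccr7 UMI. Of the 35 with Maf, 20 also held a Foxp3 UMI.

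**Figure D5:**
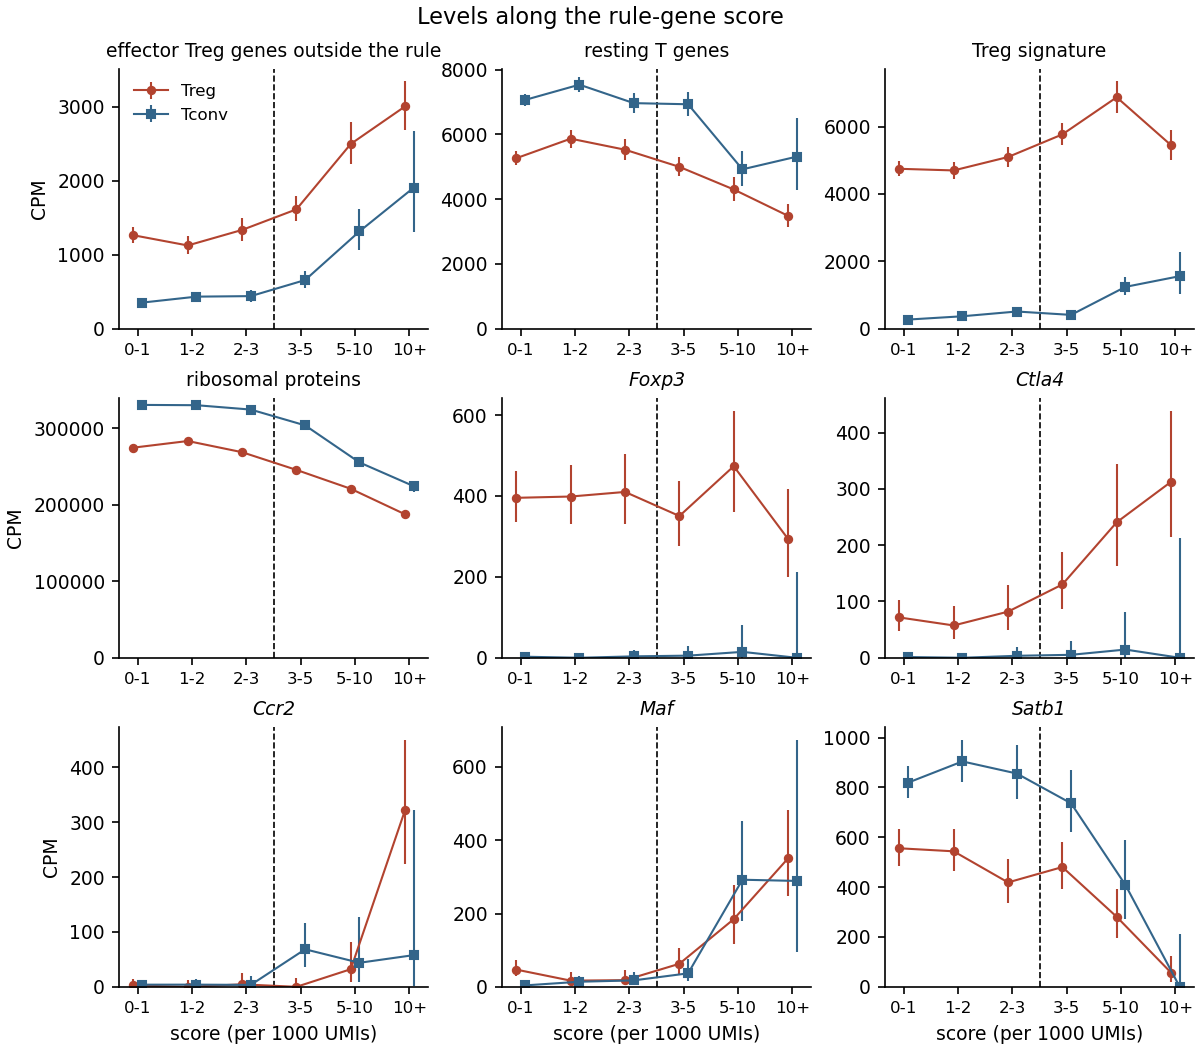
CPM (y) in cells binned by rule-gene score per 1000 UMIs (x) in Treg (circles) and Tconv (squares), with exact Poisson 95% intervals; the dashed line is the threshold of 3, and the last Tconv bin holds 12 cells. In Treg, effector genes, Ctla4 and Maf are higher in the bins above the threshold, Ccr2 is high in the last bin alone at 322 CPM, Satb1 is lowest in the last bin, and Foxp3 lies between 294 and 474 CPM.

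The same rule was applied to the Tconv library, where 162 of 1096 cells passed (14.8%, 12.7 to 17.0), against 31.6% of Treg cells (28.2 to 35.1). The intervals cover counting error within 1 library each, and library and cell type cannot be told apart. At 10 or more the library held 12 cells. In Tconv 3 of 6 measured effector genes were at least 2-fold higher in the cells above the threshold (background 4.67%) and 1 of 21 resting genes at least 2-fold lower (background 6.53%). Of the 3, Maf and Cxcr3 held 15 and 12 UMIs in the cells below the threshold and reached 30 UMIs through the cells above it. By intervals, 4 of the 6 effector genes lay wholly above 0 (background 9.53%) and 6 of the 21 resting genes wholly below 0 (background 5.04%). Of the 15 genes highest in Treg members 9 were among the measured Tconv genes. Of the 9, 8 were higher there too, 5 at least 2-fold (background 4.67%). Myo1f, with 29 UMIs above the threshold and 4 below, reached 30 UMIs through the cells above it, as Maf and Cxcr3 did. Myo1f stood at 5.35 (3.84 to 7.32), Maf at 3.59 (2.66 to 4.58), Cxcr3 at 3.08 (1.94 to 4.26) and AW112010 at 1.66 (1.27 to 2.04). Of the 15 lowest genes, 11 were lower there too, 3 at least 2-fold (background 6.53%), with a median of -0.26 against -2.65 in Treg. The share of all genes with the same direction in both libraries was not counted. Side by side, Il7r was at 1.35 in Treg and -0.23 (-0.63 to 0.14) in Tconv, Bach2 at -1.21 and 0.30 (-0.23 to 0.80), Klf2, a factor of quiescent T cells that keeps S1pr1 transcribed, at -0.50 and 0.14 (-0.14 to 0.40), and Tnfrsf1b at 1.32 and -0.68 (-2.63 to 0.80). Satb1 was at -0.67 and -0.49. The Treg signature was also higher in Tconv cells above the threshold, with a summed log2 ratio of 0.99 (0.74 to 1.23). Of its 5 measured genes there 4 had a ratio above 0. Ikzf2 stood at 2.76 (1.84 to 3.69), with 24 UMIs against 20. Nrp1, at 3.68, and Capg, at 2.63, were higher too but under 30 UMIs. Whether these ratios differ between the libraries was not tested.

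Set directly beside the 162 Tconv cells, the 227 Treg members had higher S100a6, at 1502 against 384 CPM, a log2 ratio of 1.97 (1.67 to 2.28), and higher S100a4, 2.29 (1.77 to 2.85). Crip1 was alike, 0.04 (-0.14 to 0.22), and Vim lower, -0.76 (-1.01 to -0.50). These are rule genes, which chose both groups of cells, so their values are a description. Below the threshold S100a6 was also higher in Treg cells, at 3.02 (1.60 to 4.76), with 24 UMIs against 5. Outside the rule, Maf, Myo1f and Cxcr3 were close in the 2 groups of cells above the threshold, at 0.49 (-0.12 to 1.14), 0.18 (-0.49 to 0.89) and -0.03 (-0.92 to 0.91). In the cells below the threshold Myo1f and Maf stood apart between the libraries, at 2.21 and 1.65. Far higher in the Treg members were Foxp3, at 5.68 (3.802 to 8.73), Ctla4, at 4.81 (2.91 to 7.88), and Tnfrsf1b, at 4.03 (2.63 to 5.93). Foxp3 defines regulatory T cells, so its difference follows from what the groups are and is no finding about the members. Il7r, at -0.85 (-1.38 to -0.33), and Id2, at -1.39 (-1.98 to -0.81), were lower. In the cells below the threshold the same ratios were 5.75 for Ctla4, 2.03 for Tnfrsf1b, -2.43 for Il7r and -2.29 for Id2. These differences between the libraries were thus present on both sides of the threshold and not particular to the members.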

How the data were processed

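Single spleen cells were measured by inDrops in 2 libraries, Treg (816 cells, 1468203 UMIs) and Tconv (1300 cells, 2002752 UMIs). The deposited table holds raw UMI counts of 23725 genes per cell, per the values themselves. TopHat2, SAMtools and mm10 appear in the submitters' processing notes without a stated role; how UMIs were counted and cells filtered is not given in the sources used here.

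UMIs were summed over members and over the other cells and expressed as CPM. Ratios have exact conditional intervals, shares Clopper-Pearson and levels Poisson intervals (python 3.11.15, scipy 1.17.1), which assume independent UMIs and so are too narrow where cells hold several. A class with 0 UMIs was set to 3 counts over the class. A gene was measured if it had at least 30 UMIs over both classes. The ratio intervals were run on simulated counts drawn under the same assumption of independent UMIs. That run therefore says nothing about UMIs that cluster in single cells. Thinning drew 1000 UMIs per cell without replacement. Doublets were called with scrublet (scanpy 1.11.5), which marked 15 Treg cells, 6 of them members; they were kept. TMM factors came from edgeR 4.0.16. Positions are from GENCODE for GRCm38, the assembly of mm10.

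The members and the 30 gene lists were chosen with earlier results of these data known. Of 407 list entries 7 were absent from the table. Named genes were the rule genes; the 15 highest and 15 lowest outside the rule with UMIs in at least 10 cells and at most 20% of UMIs in 1 cell, ribosomal protein genes apart; up to 6 members of each list; and, added after their values were seen, genes named for their low counts or side by side with Tconv. Alternatives varied the threshold, depth, cell and gene filters, scaling and weight per cell. A few genes that these rules name are not reported here.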

Additional observations from a re-analysis of the deposited data

How the results depend on the processing

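The share of Treg cells in the class followed the threshold: 47.0% at 2 per 1000, 15.7% at 5 and 38.4% when cells were classed after thinning; for Tconv the shares were 29.7%, 4.56% and 22.1%. The summed log2 ratio of the effector genes was 0.66, 1.06 and 0.67 under these settings and 0.69 with TMM scaling. That of the resting genes was -0.20 at 2, -0.47 at 5, -0.41 with non-ribosomal scaling and -0.44 with TMM scaling. That of the Treg signature was 0.22 and 0.19 under the latter 2. No direction of these lists turned in any alternative run. At a threshold of 5 there were 561 genes at least 2-fold lower. The counts of genes at least 2-fold higher and lower followed the number of UMIs: 201 and 167 with thinned sums, 921 and 764 at a minimum of 10 UMIs per gene, and 36 and 22 at 100. Single genes that turned sign were Hspe1 (0.0073), Il2ra (0.050) and Zfp36 (-0.053) at 2, Dnaja1 (-0.057), H2afz (-0.064), Klf6 (-0.066), Pcna (-0.32) and Tnfrsf1a (-0.37) at 5, Hspe1 (0.058), Il2ra (0.10), Kat2b (0.36), Pmf1 (0.082) and Zfp36 (-0.24) after thinning, and Cd74 (-0.074) without the filter on Cd79a, Lyz1 and C1qa; the cause was not tested. Leaving out cells with shared barcodes or the 2 members rich in UMIs of another type, both added after the data were seen, kept each list's value within its interval. With 1 library per group no replicate could be left out. No paired analysis was possible because each group is 1 library.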
